A study of Mus musculus with 8 samples.

Results

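The genes described here are 8 mRNAs of renal magnesium handling, chosen by name: Trpm6 (ENSMUSG00000024727), Trpm7 (ENSMUSG00000027365), Cnnm2 (ENSMUSG00000064105), Egf (ENSMUSG00000028017), Cldn16 (ENSMUSG00000038148), Cldn19 (ENSMUSG00000066058), Slc41a3 (ENSMUSG00000030089) and Fxyd2 (ENSMUSG00000059412). All 8 were found among the 32285 features of the count matrices. They were measured by single-nucleus RNA-seq in kidneys of male mice, with 8 libraries, 1 per mouse, in 4 groups of 2. Ctrl mice were Bmal1 lox/lox. Their cKOt littermates were Bmal1 lox/lox and also carried Pax8-rtTA and LC-1, a doxycycline-driven Cre system active in renal tubule cells, so that non-tubular cells of cKOt kidneys were not targeted. All animals were on the C57BL/6J background, were 8 weeks old when doxycycline started, and drank doxycycline (2 mg/ml) with sucrose (20 mg/ml) for 2 weeks, the controls included. They lived under 12 h light and 12 h dark, and kidneys were taken at ZT4, in the light phase, or at ZT16, in the dark phase. Bmal1, also called Arntl, is a core activator of the circadian clock.

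Magnesium filtered by the glomerulus is taken back mostly in the thick ascending limb (TAL), where it passes between cells through tight-junction pores that need claudin 16 and claudin 19 and is driven by a lumen-positive voltage. The distal convoluted tubule (DCT) takes back the last part through the cells. There the channel proteins TRPM6 and TRPM7 admit magnesium, EGF made in the same segments raises TRPM6 activity, and CNNM2, SLC41A3 and the sodium pump with its FXYD2 subunit are linked to the basolateral side. Human mutations in most of these genes cause low blood magnesium.

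Each library held 8758 to 10975 nuclei after filtering and 36548873 to 54500820 UMIs (unique molecules counted), with a median of 3003.5 to 4830 UMIs per nucleus. Nuclei were grouped into 51 clusters, and 44 clusters with 77699 nuclei (95.5%) were given 1 of 23 class names from marker genes. The members were left out of the genes used for clustering, and a class name below stands for nuclei that carry its markers, such as Slc12a3 with Pvalb for early DCT (DCT1, 2459 nuclei) and Slc12a3 with Trpv5 and Calb1 for late DCT (DCT2, 1794 nuclei). The 10072 TAL nuclei fell into clusters 2 (4982 nuclei), 7 (2527), 14 (2146) and 42 (417), which were compared cluster by cluster because cluster 14 had Enox1, a macula densa marker, and no TAL marker among its 10 leading genes. The cortical collecting duct was compared as clusters 23 and 27 for the same kind of reason, since cluster 27 had 1 marker of that class and 2 of another among its 10 leading genes. Summed Arntl counts were 33.1 to 159 CPM in the Ctrl libraries and 201 to 296 CPM in the cKOt libraries. Counts per gene cannot be limited to the deleted exon, so this gene does not check the genotype labels. Of the barcode sequences, 823 occurred in more than 1 library.

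BMAL1 binds, with CLOCK, to a DNA element called the E-box, whose canonical letters are CACGTG, a palindrome that reads the same on both strands. RefSeq promoter windows (GRCm38.p6, 250 bases before to 50 after an annotated start) matched 7 of the 8 members, and Fxyd2 had no entry. These letters occurred in the windows of Trpm7 and Slc41a3, that is 2 of 7, and in 8.09% of all genes with a window (2187 of 27025). Trpm7 held 2 copies, which 0.681% of genes did (184). Both windows are printed because they are the members with the element and because Slc41a3 in DCT1 gave the single member call between genotypes in the main test. The element is in capitals, beginning at window positions 226 and 267 in Trpm7 and 38 in Slc41a3, counted from 1 at the 5′ end of the window.
Trpm7 promoter, chr2:126876212-126876511, minus strand: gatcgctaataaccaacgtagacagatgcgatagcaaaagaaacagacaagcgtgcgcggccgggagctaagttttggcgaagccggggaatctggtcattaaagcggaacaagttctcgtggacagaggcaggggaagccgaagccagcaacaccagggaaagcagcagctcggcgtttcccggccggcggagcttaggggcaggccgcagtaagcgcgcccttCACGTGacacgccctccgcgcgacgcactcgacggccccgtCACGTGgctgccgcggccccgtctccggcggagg
Slc41a3 promoter, chr6:90618996-90619295, plus strand: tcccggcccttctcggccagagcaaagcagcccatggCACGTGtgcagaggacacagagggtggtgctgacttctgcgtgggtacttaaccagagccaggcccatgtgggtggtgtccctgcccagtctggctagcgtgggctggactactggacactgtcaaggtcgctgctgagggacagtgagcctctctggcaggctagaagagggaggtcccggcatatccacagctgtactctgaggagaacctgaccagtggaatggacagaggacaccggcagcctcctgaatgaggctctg
A match of letters is a description of the window and not evidence of binding. The starts used for the windows of Slc41a3, Trpm6 and Cnnm2 lie inside the annotated spans of these genes, so their other starts are not covered.

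**Figure D1:**
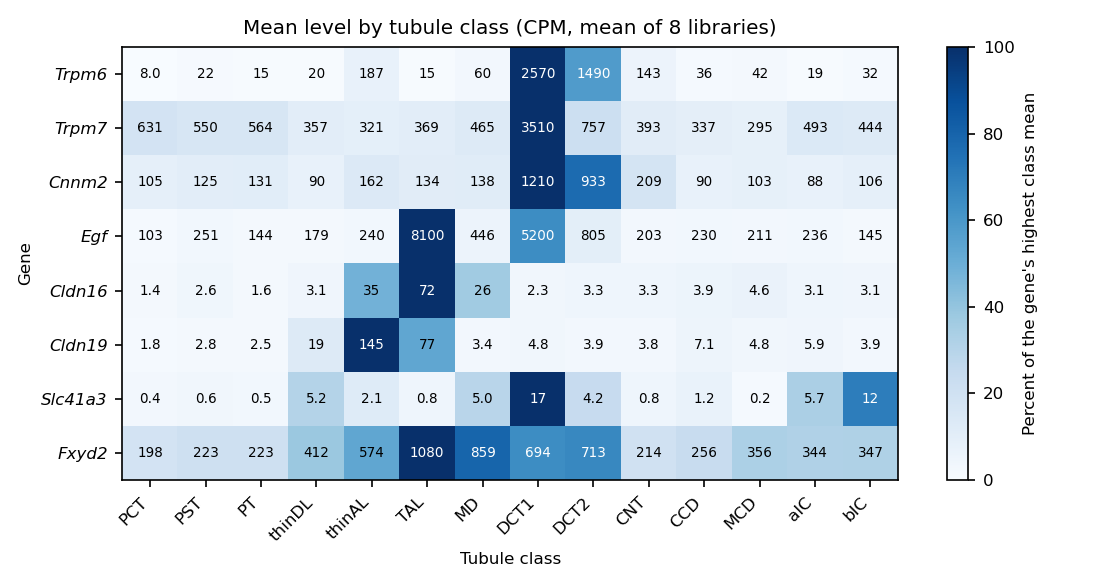
Mean level of each of the 8 genes in 14 tubule classes. Printed numbers are CPM, averaged over 8 libraries, and colour gives the percent of that gene's highest class mean. Trpm6, Trpm7 and Cnnm2 have their highest cell in DCT1, as does Slc41a3 in this mean over both genotypes but not in most Ctrl libraries, Egf, Cldn16 and Fxyd2 in TAL, and Cldn19 in the thin ascending limb.

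Trpm6, the apical magnesium channel subunit of the DCT, was highest in DCT1, at 2570 CPM ± 388 (SD, n = 8 libraries, as for all class levels here). CPM is the summed count of a gene in the nuclei of a class, scaled per library to 1000000 UMIs. Those UMIs are of the mRNAs with enough counts to be tested in that class. In DCT1 it stood at 1970 and 2540 CPM in Ctrl ZT4, 2000 and 2960 in Ctrl ZT16, 2890 and 2890 in cKOt ZT4, and 2680 and 2620 in cKOt ZT16. No group stood apart from the others. DCT2 followed at 1490 ± 323 CPM, then the thin ascending limb at 187 ± 25.8 CPM and the connecting tubule (CNT) at 143 ± 26.7 CPM. It was 14.8 CPM in TAL and 8.00 CPM in the convoluted proximal tubule (PCT). The DCT1 level exceeded that of DCT2 in 8 of 8 libraries, by 0.79 ± 0.27 on the log2 scale, and DCT2 exceeded the thin ascending limb by 2.98 ± 0.37 in 8 of 8.

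Neighbours in the order of classes were compared within each library by an exact two-sided sign-flip permutation test. With 8 libraries the smallest p it can give is 0.00781, which came to an adjusted 0.0508 over the 104 neighbouring pairs of the 8 genes, so that none of the 104 pairs passed 0.05. The orders are therefore given with the number of libraries that share them. A pair that missed the limit is thus not shown to be equal. For Trpm6, the thin ascending limb exceeded CNT by 0.39 ± 0.38 in 7 of 8 libraries (exact permutation p adjusted 0.156).

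Trpm7, a channel with a kinase domain that is found in most cells, was counted in every tubule class, from 295 ± 22.5 CPM in the medullary collecting duct upward. It was highest in DCT1, at 3510 ± 433 CPM, and the next level was 757 ± 85.9 CPM in DCT2. The step from DCT1 to DCT2 was 2.21 ± 0.26 on the log2 scale in 8 of 8 libraries. DCT1 levels were 3740 and 3910 CPM in Ctrl ZT4, 3850 and 4000 in Ctrl ZT16, 2860 and 3490 in cKOt ZT4, and 3090 and 3130 in cKOt ZT16. Every Ctrl library lay above every cKOt library, a difference that did not pass the main test given below. DCT2 and PCT (631 ± 32.0 CPM) differed by 0.25 ± 0.20, in 7 of 8 libraries (exact permutation p adjusted 0.0812).

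Cnnm2, a basolateral protein of the cyclin M family whose loss lowers blood magnesium, was also highest in DCT1 (1210 ± 387 CPM) and DCT2 (933 ± 261 CPM). The DCT1 values were 1290 and 727 CPM in Ctrl ZT4, 1180 and 1440 in Ctrl ZT16, 1860 and 657 in cKOt ZT4, and 1360 and 1170 in cKOt ZT16. The replicate 2 libraries of both ZT4 groups were the lowest of the 8, and they were also the lowest in DCT2 and CNT. DCT1 and DCT2 differed by 0.36 ± 0.31 in 7 of 8 libraries (exact permutation p adjusted 0.0812), whereas DCT2 exceeded CNT (209 ± 83.0 CPM) by 2.22 ± 0.38 in 8 of 8.

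Egf, the precursor of epidermal growth factor, was highest in TAL, at 8100 ± 1900 CPM and 280830 UMIs in all. DCT1 followed at 5200 ± 1700 CPM, lower than TAL by 0.67 ± 0.33 on the log2 scale in 8 of 8 libraries, and DCT2 was lower again, at 805 ± 374 CPM, a step of 2.75 ± 0.35 in 8 of 8. Among TAL clusters the Egf level was 14000 ± 2520 CPM in cluster 14, 11300 ± 2390 in cluster 7, 4720 ± 1900 in cluster 42 and 3660 ± 1340 in cluster 2. Egf was also counted outside these segments, at 203 ± 107 CPM in CNT and 103 ± 23.5 CPM in PCT. With every nucleus thinned to 1000 UMIs, 87.5% of TAL, 78.3% of DCT1 and 21.7% of DCT2 nuclei had an Egf UMI, against 9.55% in CNT, 8.75% in PCT and 14.5% in vascular nuclei. Without thinning these shares were 97.5%, 94.2%, 49.9%, 33.3%, 30.9% and 28.0%, at median depths of 3821, 4711, 4861.5, 4147, 4461 and 2076 UMIs. The CNT share was below that of vascular nuclei, a cell type that should lack the gene, so Egf counts in CNT are read as background. Other cell types outside the tubule had larger shares, at 21.8% for T and NK nuclei (29.9% unthinned, median depth 1647 UMIs) and 34.1% for podocytes (69.6%, 3790 UMIs). The DCT2 share lay above the vascular share but did not exceed these, so whether Egf counts in DCT2 exceed background cannot be told from these shares, and the DCT2 values of Egf below carry that limit.

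Cldn16, whose product forms the magnesium-permeable junctions of the TAL, was highest in TAL at 72.4 ± 11.4 CPM. The thin ascending limb (34.8 ± 12.7 CPM) and macula densa (26.5 ± 19.9 CPM, 14 UMIs) came next, and each other class was under 5 CPM. TAL exceeded the thin ascending limb by 1.11 ± 0.64 on the log2 scale in 8 of 8 libraries. The thin ascending limb and macula densa differed by less than their spread (0.90 ± 1.96, higher in 4 of 8 libraries, exact permutation p adjusted 0.614). Within TAL the gene was concentrated in cluster 14, at 198 ± 26.0 CPM, with 201 and 186 CPM in Ctrl ZT4, 149 and 217 in Ctrl ZT16, 226 and 179 in cKOt ZT4, and 207 and 221 in cKOt ZT16. Clusters 7, 2 and 42 had 49.0 ± 10.3, 26.5 ± 9.86 and 26.2 ± 19.4 CPM. Cluster 14 was higher than cluster 7 by 2.01 ± 0.25 and than cluster 2 by 2.92 ± 0.54 on the log2 scale, each in 8 of 8 libraries. These differences, and those of the other genes between TAL clusters, carry no test because the clusters were made from the same nuclei.

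**Figure D2:**
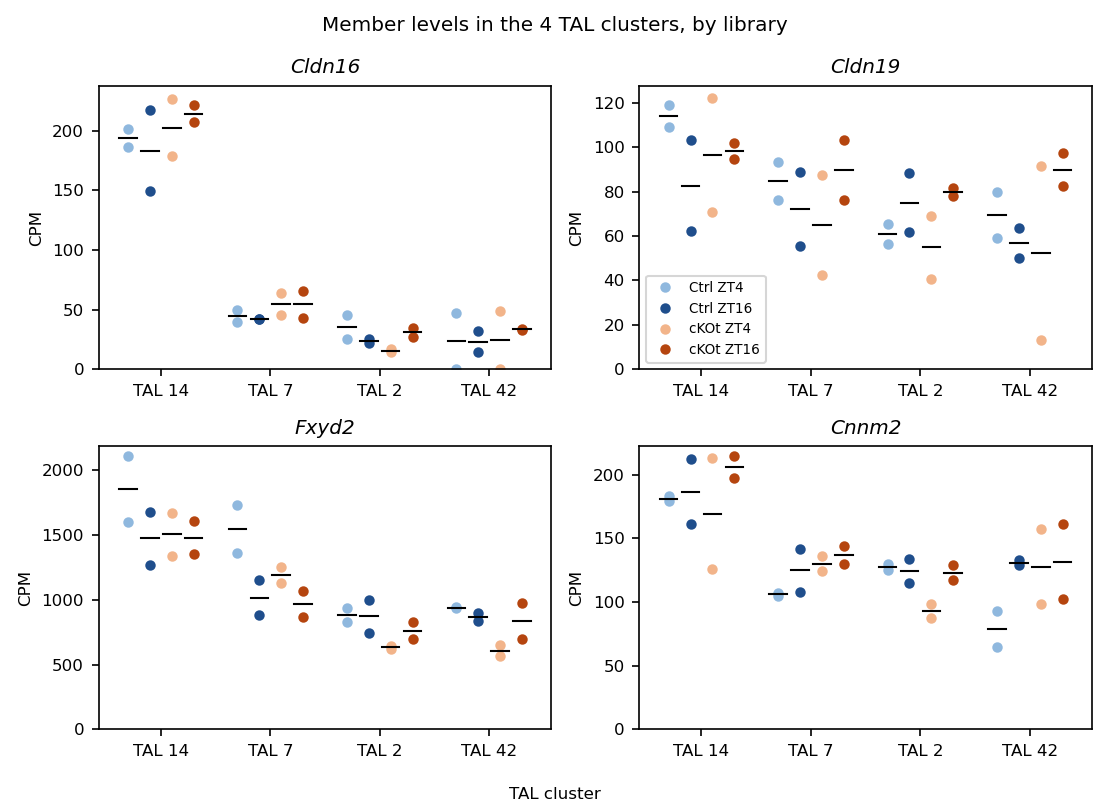
Levels of Cldn16, Cldn19, Fxyd2 and Cnnm2 in TAL clusters 14, 7, 2 and 42. Each point is the CPM of 1 library, coloured by group, on a linear axis from 0, and a black line is the mean of the 2 libraries of a group. Cldn16 points of cluster 14 lie between 149 and 226 CPM, all above the points of the other clusters.

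Cldn19, the partner of claudin 16 in these junctions, was highest in the thin ascending limb (145 ± 58.0 CPM), above TAL (77.2 ± 15.3 CPM) by 0.82 ± 0.44 on the log2 scale in 8 of 8 libraries. It was spread more evenly over the TAL clusters than Cldn16, at 97.9 ± 21.3 CPM in cluster 14, 77.9 in cluster 7, 67.7 in cluster 2 and 67.1 in cluster 42. Cluster 14 exceeded cluster 2 by 0.53 ± 0.37 in 8 of 8 libraries.

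Slc41a3, a basolateral magnesium transporter of the SLC41 family, was rare, with 718 UMIs over all nuclei and a mean of 2.27 CPM. Over the 8 libraries the mean was 17.1 ± 11.3 CPM in DCT1, from 165 UMIs, and 12.0 ± 3.52 CPM in type B intercalated nuclei, from 57 UMIs. The order depended on the genotype. In Ctrl, DCT1 had 5.09 to 13.5 CPM and type B intercalated nuclei 9.73 to 13.4 CPM, with DCT1 higher in 1 of 4 libraries, whereas in cKOt they had 18.6 to 39.5 and 8.26 to 19.8 CPM, with DCT1 higher in 4 of 4. These classes differed by less than their spread (0.27 ± 0.91, higher in 5 of 8 libraries, exact permutation p adjusted 0.86). DCT2 had 4.19 CPM from 35 UMIs. In nuclei thinned to 1000 UMIs, 1.38% of DCT1 and 0.0487% of PCT nuclei had a Slc41a3 UMI (6.06% and 0.183% unthinned, at median depths of 4711 and 4461 UMIs). Outside the tubule the thinned share was 0.738% in myeloid, 0.609% in mesangial and pericyte, and 0.310% in vascular nuclei (0.657% unthinned in vascular nuclei, median depths of 1833, 2467 and 2076 UMIs), and the 0.475% of DCT2 lay among these.

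Fxyd2, the gamma subunit of the sodium pump, was counted in every tubule class. It was highest in TAL (1080 ± 190 CPM) and macula densa (859 ± 139 CPM), followed by DCT2 (713 CPM), DCT1 (694 CPM) and the thin ascending limb (574 CPM), and it was lowest in PCT (198 CPM). With nuclei thinned to 1000 UMIs, 53.9% of TAL, 50.1% of macula densa, 42.1% of DCT2, 41.8% of DCT1 and 34.3% of thin ascending limb nuclei had a Fxyd2 UMI, against 18.6% of vascular nuclei (88.9% of TAL and 33.8% of vascular nuclei unthinned, at median depths of 3821 and 2076 UMIs). The shares of PCT (15.9%), CNT (16.1%) and the other proximal classes (16.1% and 17.4%) lay below the vascular share but above the podocyte share of 7.50% and the mesangial and pericyte share of 13.9%, and unthinned the PCT and CNT shares (51.4% and 46.0%) exceeded the vascular one. Whether Fxyd2 counts in these classes exceed background cannot be told from these shares. DCT1 and DCT2 differed by less than their spread (0.04 ± 0.18, exact permutation p adjusted 0.95). Cluster 14 again led within TAL, at 1580 ± 269 CPM, above cluster 7 by 0.44 ± 0.16, above cluster 2 by 1.00 ± 0.25 and above cluster 42 by 0.96 ± 0.30 on the log2 scale, each in 8 of 8 libraries. Cnnm2 followed the same order in part, with cluster 14 above cluster 2 by 0.65 ± 0.21 in 8 of 8 libraries and above cluster 7 by 0.56 ± 0.29 in 7 of 8. Trpm7 went the other way, the difference of cluster 14 minus cluster 7 being -0.66 ± 0.22 and below 0 in 8 of 8 libraries.

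Counts of 5 genes may include reads of neighbours, since Egf overlaps the lncRNA gene 6330410L21Rik, Cldn19 overlaps Gm12927, Trpm6 overlaps Gm41814 and Gm23238, Fxyd6 lies within 5 kb of Fxyd2, and Gm15756 within 5 kb of Slc41a3. Among other genes named below, Cox7b lies within 5 kb of Magt1 and Gp2 within 5 kb of Umod. The strand setting of the counting was not given in the sources used here, so these pairs cannot be told apart.

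Whether members were found in the same nuclei was measured by the odds ratio of 2 genes each having a UMI in nuclei thinned to 1000 UMIs, 1 value per library, with an exact two-sided sign-flip permutation test over the 8 libraries and adjustment over 26 pairs. In TAL, the mean log2 odds ratio of Cldn16 and Egf was 1.92 ± 1.04 (above 0 in 8 of 8 libraries, exact permutation p adjusted 0.0254). Of the thinned nuclei with Cldn16, 479 also had Egf and 21 did not, in a class where 87.5% of thinned nuclei had Egf. Cldn16 nuclei without Egf numbered 0 to 9 per library. The size of this ratio thus rests on few nuclei and on a constant added to each count. Cldn16 and Cldn10, the claudin of sodium-selective TAL junctions, had a negative ratio, at -0.97 ± 0.68 (below 0 in 8 of 8, exact permutation p adjusted 0.0254), and 72 nuclei had both. Cldn16 and Cldn19 gave 0.06 ± 0.99, above 0 in 3 of 8 libraries (exact permutation p adjusted 0.961). Inside single clusters the ratio of Cldn16 and Egf could be read in cluster 2 alone, where it was 0.42 (-1.67 to 2.97, above 0 in 5 of 8 libraries). In clusters 14 and 7, 97.8% and 96.2% of thinned nuclei had Egf and 3 and 2 Cldn16 nuclei lacked it, and cluster 42 had 1 such nucleus, so that the constant added to each count sets the ratio there. With Cldn10 the ratio was -0.49 in cluster 14, 0.53 in cluster 2 and 0.06 in cluster 7, with values on both sides of 0 in each, and 1 nucleus of cluster 42 had both genes. The negative ratio of Cldn10 and Egf in TAL (-0.47 ± 0.37) turned to 0.31 without thinning (exact permutation p adjusted 0.462).

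In the DCT, Trpm6 and Cnnm2 were found together in both classes. The mean log2 odds ratio was 0.80 ± 0.38 in DCT1 and 1.06 ± 0.49 in DCT2, above 0 in 8 of 8 libraries each (exact permutation p adjusted 0.0254). Trpm6 and Trpm7 gave -0.26 ± 0.48 in DCT1 (exact permutation p adjusted 0.271) and 0.44 ± 0.27 in DCT2 (8 of 8, exact permutation p adjusted 0.0254), and the difference between the classes was not tested. In DCT2 the pairs Egf and Trpm7 (0.77 ± 0.42), Trpm6 and Egf (0.62 ± 0.43) and Cnnm2 and Trpm7 (0.57 ± 0.44) passed as well, those with Egf under the limit given above for its counts in DCT2. When clustering was repeated with 50 components, 76.1% of DCT2 nuclei kept that name, against 94.1% of DCT1 nuclei. Whether a mixture of cell types within DCT2 enters its ratios was not tested. In all, 10 of 26 pairs passed. The test of Egf with Slc41a3 in DCT2, counted among the 10, is void, because 4 of 8 libraries had no thinned DCT2 nucleus with a Slc41a3 UMI and the constant added to each count set their ratios.

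**Figure D3:**
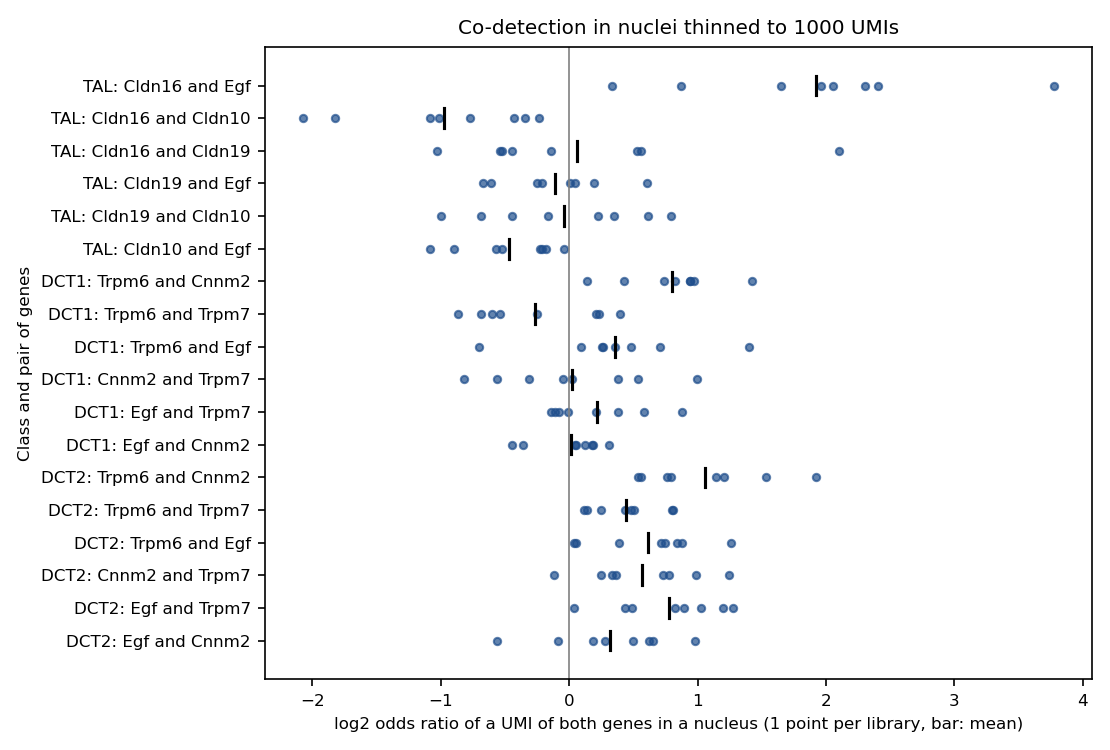
Co-detection of gene pairs in nuclei thinned to 1000 UMIs, in TAL, DCT1 and DCT2. Each point is the log2 odds ratio of 1 library and each bar the mean of 8, with 0 for no association. All 8 points lie above 0 for Cldn16 with Egf in TAL and for Trpm6 with Cnnm2 in DCT1 and DCT2.

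The genes most like each member were those with the highest Pearson r of log2(CPM + 1) over the means of the 23 classes, among 12038 genes reaching 20 CPM in a class. These r values are descriptions over classes that share libraries and depth. Slc12a3, Pvalb and Umod were also among the markers that named the classes, so their likeness is in part built in. For Trpm6 they were Tdrd3 (0.874), Tsc22d2 (0.871) and Simc1 (0.854). For Trpm7 they were Lrrc52 (0.826), Slc12a3 (0.791), the thiazide-sensitive cotransporter, and Pvalb (0.763), and for Cnnm2 Lrrc52 (0.827), Emx1 (0.796) and Tmem94 (0.783). Egf was followed by Umod (0.878), which encodes uromodulin, Tarm1 (0.873) and Dusp15 (0.866). Cldn16 was followed by Erbb4 (0.798), Cldn19 (0.772) and Zfhx4 (0.756), and Cldn19 by Sim2 (0.918), Sgcz (0.887) and Nccrp1 (0.875). Fxyd2 was followed by Ppp1r1a (0.848), Esrrb (0.834) and Glycam1 (0.834). Slc41a3 stayed below 20 CPM in every class and was not ranked.

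The first comparison asked whether the genes differed between the light and dark phase. Egf was lower at ZT16 than at ZT4 in all 4 TAL clusters when both genotypes were averaged, where 3.70% (cluster 2), 0.879% (42), 1.92% (7) and 1.44% (14) of all genes tested passed in either direction. In cluster 2 the level was 4800 and 4370 CPM in Ctrl ZT4, 2920 and 2750 in Ctrl ZT16, 4210 and 5840 in cKOt ZT4, and 1990 and 2380 in cKOt ZT16. All ZT16 libraries lay below all ZT4 libraries, and the same was true of clusters 42, 7 and 14. The log2 change in cluster 2 was -0.95 (SE 0.12, edgeR quasi-likelihood test, Benjamini-Hochberg adjusted p 5.36e-05), that is 0.518-fold. It was -1.03 in cluster 42 (SE 0.14, edgeR adjusted p 1.03e-05).

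The clusters with more Egf showed smaller changes. In cluster 7 the levels were 13700 and 14900 CPM in Ctrl ZT4, 8950 and 9960 in Ctrl ZT16, 12000 and 13000 in cKOt ZT4, and 8320 and 9940 in cKOt ZT16, a log2 change of -0.52 (SE 0.10, edgeR adjusted p 0.00487). In cluster 14 they were 14600 and 17200, 10900 and 12700, 16400 and 16400, and 11300 and 12200 CPM in the same order, a log2 change of -0.46 (SE 0.11, edgeR adjusted p 0.0238). The difference in size between clusters was not tested. The cluster 7 call was lost without cKOt ZT16 replicate 1 (-0.46, edgeR adjusted p 0.0626). The cluster 14 call was lost without Ctrl ZT4 replicate 2 (-0.39, edgeR adjusted p 0.19), cKOt ZT4 replicate 2 (-0.45, 0.106), Ctrl ZT16 replicate 1 (-0.41, 0.0594) or cKOt ZT16 replicate 1 (-0.43, 0.149). The calls in clusters 2 and 42 held without any 1 library. The averaged time test took the 8 libraries as independent. Over all nuclei, however, same-numbered libraries of the 2 genotypes deviated together within a time point (correlation 0.45 at ZT4 and 0.47 at ZT16). Leaving out 1 library does not remove a shared deviation. The share of TAL nuclei in each cluster ranged over the libraries from 41.1% to 52.8% for cluster 2, 22.7% to 28.9% for 7, and 1.96% to 6.03% for 42, and was lowest in Ctrl ZT16 replicate 1 for 14 (18.4%).

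**Figure D4:**
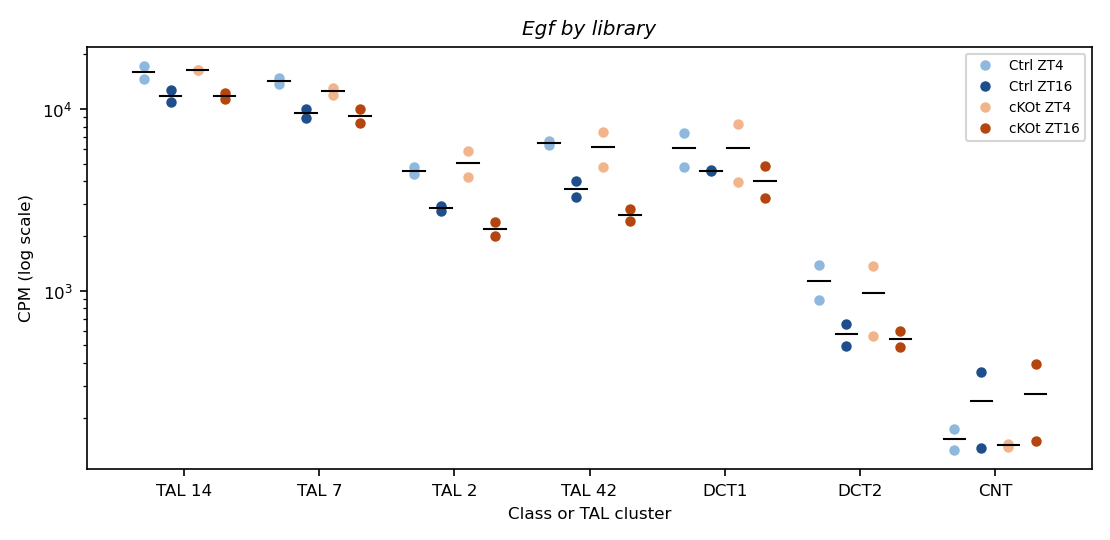
Egf level in each library, in TAL clusters 14, 7, 2 and 42, DCT1, DCT2 and CNT, as CPM on a log axis. Points are libraries, coloured by group. In each TAL cluster the ZT16 points lie below the ZT4 points, in cluster 2 from 1990 to 2920 CPM against 4210 to 5840 CPM, whereas in DCT1, DCT2 and CNT they overlap.

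In DCT2 and CNT, where 1.70% and 1.83% of all genes tested passed the averaged time test, the Egf values were more scattered, with the Egf share of CNT at background and that of DCT2 undecided. DCT2 had 884 and 1380 CPM in Ctrl ZT4, 499 and 653 in Ctrl ZT16, 566 and 1370 in cKOt ZT4, and 599 and 487 in cKOt ZT16, with overlap between the times. The log2 change was -0.91 (SE 0.19, edgeR adjusted p 0.00805), and DESeq2 gave an adjusted p of 0.403. The call was lost without Ctrl ZT4 replicate 2 (-0.73, edgeR adjusted p 0.0818), cKOt ZT4 replicate 2 (-0.52, 0.106) or Ctrl ZT16 replicate 1 (-0.82, 0.0667). In DCT1 the change was -0.50 (SE 0.19, edgeR adjusted p 0.176). In CNT, where the counts are at background, the fitted change was 0.85 (SE 0.22, edgeR adjusted p 0.0352), from 174 and 133 CPM in Ctrl ZT4, 355 and 137 in Ctrl ZT16, 138 and 144 in cKOt ZT4, and 394 and 149 in cKOt ZT16. Only 2 libraries, both replicate 1 at ZT16, were high. The change was 0.40 without the Ctrl one and 0.41 without the cKOt one (edgeR adjusted p 0.543 and 0.451), and the call was also lost without any ZT4 library (0.75 to 0.96, edgeR adjusted p 0.0865 to 0.23).

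Cnnm2 was higher at ZT16 in CNT and DCT2. The CNT levels were 124 and 102 CPM in Ctrl ZT4, 238 and 282 in Ctrl ZT16, 251 and 111 in cKOt ZT4, and 308 and 253 in cKOt ZT16. Among the ZT4 libraries, cKOt replicate 1 overlapped with the ZT16 range. The replicate 2 libraries of both ZT4 groups were the lowest, and leaving out 1 library does not remove a deviation they share. The log2 change was 0.94 (SE 0.17, edgeR adjusted p 0.00158), a 1.91-fold rise, and it stayed past the limit without any 1 library, but DESeq2 gave an adjusted p of 0.255. In DCT2 the values were 892 and 615, 1240 and 1260, 950 and 526, and 995 and 983 CPM in the same order, with no overlap between times and a log2 change of 0.57 (SE 0.14, edgeR adjusted p 0.0352). That call was lost without Ctrl ZT4 replicate 2 (0.45, edgeR adjusted p 0.198), cKOt ZT4 replicate 2 (0.40, 0.174) or any of the 4 ZT16 libraries (0.56 to 0.58, 0.0746 to 0.0967). In DCT1 the Cnnm2 change was 0.19 (SE 0.22, edgeR adjusted p 0.741).

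Fxyd2 was lower at ZT16 in TAL cluster 7, at 1730 and 1360 CPM in Ctrl ZT4, 1150 and 884 in Ctrl ZT16, 1250 and 1130 in cKOt ZT4, and 1070 and 865 in cKOt ZT16, with overlapping times. The log2 change was -0.44 (SE 0.12, edgeR adjusted p 0.0493). The call was lost without Ctrl ZT4 replicate 1 (-0.34, edgeR adjusted p 0.29), Ctrl ZT16 replicate 2 (-0.36, 0.164) or any 1 of the 4 cKOt libraries (-0.53 to -0.38, 0.0713 to 0.236). Trpm6 and Trpm7 in DCT1 both had a time change of 0.00 (SE 0.13 and 0.11, edgeR adjusted p 0.994 and 0.997). Cldn16 in cluster 14 gave -0.00 (edgeR adjusted p 0.998) and Cldn19 in the thin ascending limb -0.06 (SE 0.23, edgeR adjusted p 0.992). Slc41a3 in DCT1 gave 0.90 (SE 0.29, edgeR adjusted p 0.115).

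Over all 19 sets of nuclei tested (all nuclei, 12 tubule classes, 4 TAL clusters and 2 collecting duct clusters), members passed the averaged time test in 9 of 120 tests, beside 1.02% of all gene tests. Cnnm2 and Egf in CNT, Cnnm2 and Egf in DCT2, Egf in the 4 TAL clusters and Fxyd2 in cluster 7 made up the 9.

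Within Ctrl alone, members passed 4 of 115 tests (0.419% of all gene tests). These were Cnnm2 in CNT (log2 change 1.20, SE 0.25, edgeR adjusted p 0.0149) and Egf in TAL clusters 2 (-0.69, edgeR adjusted p 0.0424), 42 (-0.83, 0.0321) and 7 (-0.60, 0.0476), beside 0.439%, 1.32%, 0.285% and 0.859% of all genes tested there. None of the 4 held under every omission of 1 library. Without 1 Ctrl library at a time the Cnnm2 change was 1.06 to 1.35 (edgeR adjusted p 0.0791 to 0.313), and the Egf change was -0.76 to -0.61 in cluster 2 (0.085 to 0.272) and -1.01 to -0.70 in cluster 42 (0.119 to 0.742). In cluster 7 it was -0.64, -0.53 and -0.52 without Ctrl ZT4 replicate 1, Ctrl ZT4 replicate 2 and Ctrl ZT16 replicate 1 (0.184, 0.294 and 0.241). The cluster 7 call was also lost without any 1 of the cKOt libraries (-0.59, 0.0513 to 0.0679), that of cluster 2 without cKOt ZT4 replicate 1 or either cKOt ZT16 library (-0.70 to -0.69, 0.0506 to 0.0585), and that of cluster 42 without cKOt ZT16 replicate 2 (-0.81, 0.065). Within cKOt alone, members passed 2 of 116 tests (0.151%), both Egf, at -1.20 in cluster 2 (SE 0.17, edgeR adjusted p 0.00119) and -1.24 in cluster 42 (SE 0.19, edgeR adjusted p 0.000336), beside 0.729% and 0.148% of genes tested there. They were lost without cKOt ZT4 replicate 2 (-0.94, 0.0807 and -0.85, 0.248), cluster 2 also without cKOt ZT16 replicate 1 (-1.08, 0.0664) and cluster 42 also without cKOt ZT16 replicate 2 (-1.15, 0.0512).

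The difference of the time change between genotypes was tested directly as an interaction. By edgeR, 0 of 120 member tests passed, 5 had an unadjusted p under 0.05, and DESeq2 also called 0 (0.0321% of all gene tests were called by edgeR). For Egf in cluster 2 the interaction was -0.51 on the log2 scale (edgeR adjusted p 0.999). For Trpm6 in DCT2 it was -0.63 (SE 0.23, edgeR adjusted p 0.998), the time change being 0.60 in Ctrl (edgeR adjusted p 0.090) and -0.03 in cKOt.

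The next comparison asked whether loss of tubular Bmal1 moved the genes. Slc41a3 was higher in cKOt than in Ctrl in DCT1. The level was 5.09 and 5.78 CPM in Ctrl ZT4 (6 and 9 UMIs), 10.6 and 13.5 in Ctrl ZT16 (14 and 16), 20.2 and 18.6 in cKOt ZT4 (22 and 21) and 39.5 and 24.0 in cKOt ZT16 (44 and 33). Every cKOt library exceeded every Ctrl library, and within each genotype the ZT16 libraries exceeded those of ZT4. The log2 fold change averaged over both times was 1.59 (SE 0.28, edgeR adjusted p 0.00629), that is 3.02-fold. The thinned share of DCT1 nuclei with Slc41a3 was 0.666% in Ctrl (0.345% to 1.15% over libraries) and 2.09% in cKOt (1.32% to 2.79%), beside 0.660% and 0.816% in myeloid and 0.486% and 0.732% in mesangial and pericyte nuclei. The Ctrl share in DCT1 is thus close to that of myeloid nuclei, and the fold carries that limit. At single times it was 1.81 at ZT4 (edgeR adjusted p 0.125) and 1.38 at ZT16 (edgeR adjusted p 0.204). The call was lost without Ctrl ZT16 replicate 1 (1.51, edgeR adjusted p 0.0526) or cKOt ZT16 replicate 1 (1.40, edgeR adjusted p 0.0629). In DCT2 the log2 change was 0.78 (edgeR adjusted p 0.893), in type B intercalated nuclei 0.11 (0.993) and over all nuclei 0.31 (0.657).

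Slc41a3 in DCT1 was the single member call among 120 genotype tests averaged over time (0.799% of all gene tests, 0.545% in DCT1), and DESeq2 also called 1. The share of member tests called, 0.833%, is close to that of all gene tests, so the call is not read as a result about the members. At ZT4 alone edgeR called 0 of 112 member tests (10 at an unadjusted p under 0.05, 0 by DESeq2, 0.392% of all gene tests). At ZT16 alone it called 0 of 117 (12 at an unadjusted p under 0.05, 0 by DESeq2, 0.238% of all gene tests).

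**Figure D5:**
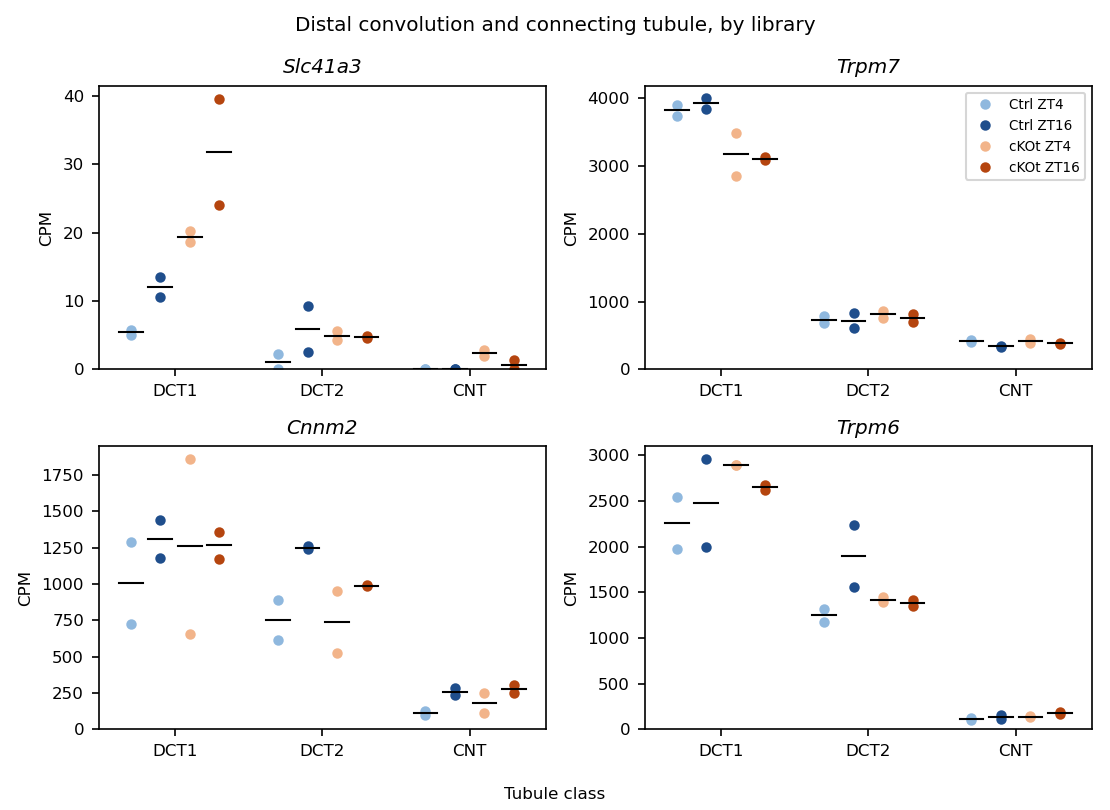
Levels of Slc41a3, Trpm7, Cnnm2 and Trpm6 in DCT1, DCT2 and CNT by library, in CPM. Points are libraries, coloured by group, and lines are means of 2. In DCT1, Slc41a3 lies between 5.09 and 13.5 CPM in Ctrl and between 18.6 and 39.5 CPM in cKOt.

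The genotype differences that follow did not pass the test, including some whose groups did not overlap. The share of all genes whose groups do not overlap was not counted, so these values are not read as results about the members. Calls that changed with a replicate block are given in the last section. Trpm7 in DCT1 gave a log2 change of -0.30 for cKOt against Ctrl (SE 0.11, edgeR adjusted p 0.485). Cldn16 in the thin ascending limb gave -0.90 (SE 0.25, edgeR adjusted p 0.149), with 38.1, 55.3, 43.6 and 40.2 CPM in the Ctrl libraries and 23.1, 17.0, 37.9 and 23.1 CPM in cKOt, from 12 to 44 UMIs per library. Cldn19 in the same class gave -0.75 (SE 0.23, edgeR adjusted p 0.229), and its values, 183, 211, 228 and 99.5 CPM in Ctrl against 66.1, 135, 142 and 95.1 CPM in cKOt, overlapped. The cKOt ZT16 replicate 1 library held the fewest nuclei of this class. Fxyd2 in type A intercalated nuclei gave 0.45, higher in cKOt without overlap (edgeR adjusted p 0.166). Trpm6 in DCT1 gave 0.23 (SE 0.13, edgeR adjusted p 0.814), and Egf ranged from -0.58 to 0.55 over the sets of nuclei (smallest edgeR adjusted p 0.226 in this fit without a replicate block). Its highest value was that of the straight proximal tubule (PST), where the genotypes lay in different clusters, 15 with 429 to 560 nuclei per cKOt and 10 to 73 per Ctrl library, and 21 with 0 to 36 and 334 to 489. The thinned Egf share there (9.02%) was below that of vascular nuclei.

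Other genes of the pathway were counted from lists in all nuclei, DCT1, DCT2 and the TAL clusters. The list of magnesium channels and transporters holds 16 genes, 8 to 16 of which could be tested, depending on the set of nuclei and contrast. The share of all genes that passed in these 7 sets ran from 0.544% to 3.70% for time and from 0.292% to 1.02% for genotype, both averaged. Magt1, which encodes a magnesium transporter that is also a subunit of the protein glycosylation machinery, was the 1 gene of this list that passed, and it rose at ZT16 in all 7 sets. In TAL cluster 7 its level was 54.1 and 74.8 CPM in Ctrl ZT4, 149 and 183 in Ctrl ZT16, 57.7 and 59.0 in cKOt ZT4, and 163 and 157 in cKOt ZT16. The times did not overlap, and the log2 change was 1.39 (SE 0.14, edgeR adjusted p 1.62e-06). The changes were 1.23 in cluster 14, 1.21 in cluster 42, 0.69 in cluster 2, 0.72 in DCT1, 0.67 in DCT2 and 0.73 over all nuclei (edgeR adjusted p 2.52e-05, 0.0344, 0.00173, 0.00868, 0.0242 and 0.0348). No gene of this list passed a genotype contrast. In DCT1 the list median was -0.15 for time, beside 0.00 for all genes tested.

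Among 13 regulators (7 to 13 tested), 3 passed for time, each in 1 of the 7 sets. The share of this list's tests that passed was not counted, so the 3 calls are not read as a result about the list. Pth1r, the parathyroid hormone receptor, rose at ZT16 in DCT2 by 0.72 on the log2 scale (edgeR adjusted p 0.00489, 1.70% of all genes tested there). Casr, the calcium-sensing receptor that restrains divalent ion uptake in TAL, rose in cluster 2 by 0.43 (edgeR adjusted p 0.0213, 3.70%), and Ppp1r1a rose in cluster 42 by 0.72 (edgeR adjusted p 0.0319, 0.879%). For genotype, Arl15, a small GTPase linked to CNNM proteins, was lower in cKOt in DCT2, with 4910 to 6760 CPM in Ctrl and 3650 to 4470 CPM in cKOt, a log2 change of -0.50 (SE 0.10, edgeR adjusted p 0.0252, beside 0.432% of all genes tested there).

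Of 15 genes for salt transport and membrane voltage (12 to 15 tested), Umod counts were lower in cKOt in all 7 sets, with log2 changes of -0.96 to -0.54 in the TAL clusters (edgeR adjusted p 2.69e-05 to 0.0044) and -1.17 in DCT1 (edgeR adjusted p 0.000182). At ZT16 they were higher in TAL cluster 2 and DCT1 (0.49 and 0.69). The thinned share of nuclei with Umod was 76.2% in TAL and 23.5% in DCT1, against 10.3% in vascular nuclei (93.3%, 53.0% and 20.3% unthinned). In DCT2 the share was 8.66%, below that of vascular nuclei, and its Umod changes (-1.54 for genotype and 0.62 for time) carry that limit. CNT, with a share of 8.63%, gave -1.13 and 1.15. How far background counts enter the DCT1 changes was not tested. The potassium channel genes Kcnj10 and Kcnj16 in cluster 2 and Bsnd, a chloride channel subunit, in cluster 7 passed a test as well. Their changes are not reported here. Egf and Umod, which followed each other over classes, had time changes of opposite sign in cluster 2. Of 7 claudin and junction genes (4 to 7 tested), Tmem207 passed for time in cluster 2 (0.41, edgeR adjusted p 0.049) and Cldn10 was higher in cKOt over all nuclei (0.51, edgeR adjusted p 0.0256). None of the 6 other FXYD genes passed. All 6 could be tested over all nuclei, but at most 2 in cluster 2, 1 each in DCT1, DCT2 and clusters 7 and 14, and 0 in cluster 42, so the segments were hardly covered.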

How the data were processed

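The authors deposited UMI counts per gene and nucleus, unnormalized, as 1 matrix per library. Their processing notes list bcl2fastq 2.20, Cell Ranger 7.1.0, Seurat 5 and the build GRCm39, whereas the methods name mm10. No source used here says if introns were counted. Barcodes were kept from 500 genes and 800 UMIs upward, with mitochondrial UMIs up to 2% (81391 of 82784). Scrublet (scanpy 1.11.5, expected rate 8%) called 5.37% doublets, which were kept unless stated. Nuclei were clustered with Seurat 5.3.0 on 2000 variable features and 1000 components (20 neighbours, resolution 2.2), with 59 list genes and members left out. A cluster took the class with the highest mean marker z if that was 0.9 or more, 3 or more markers were 2-fold above the rest and in 10% or more of its nuclei, and doublets were under 50%. Clusters whose best list was PCT or PST needed 4 such markers for that name and were otherwise called PT, a joint proximal class, if 3 or more markers of both lists together were in 10% or more of their nuclei.

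Counts were summed per library in classes with 10 or more nuclei in every library. Genes that reached 5 counts in each replicate of a compared group were tested by edgeR 4.0.16 (quasi-likelihood, TMM, 1 model of 4 groups, R 4.3.3), mRNAs only, with Benjamini-Hochberg adjustment over all genes of a class and contrast and a limit of 0.05. DESeq2 1.42.0 was an alternative. The edgeR step was tested on simulated data. CPM used TMM-adjusted totals of the mRNAs that passed the count filter in a class. Small classes kept fewer such genes, and the effect of this on their CPM was not measured. Thinning to 1000 UMIs left out 1141 nuclei. Replicates of a group were not copies of 1 library (chi-square over degrees of freedom 35.0 to 61.6). The edgeR p-values rest on the spread between the 2 mice of a group, pooled over the 4 groups and moderated across genes. The permutation p-values rest on how alike the 8 libraries were, over both genotypes and times.

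The genes named are the 8 members, Arntl, list genes that passed in all nuclei, TAL, DCT1 or DCT2, and the 3 genes most like each member. Some results of listed genes are not reported here. The members, lists and markers were chosen with earlier results of these data known.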

Additional observations from a re-analysis of the deposited data

Results flagged for a closer look

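The time change of Egf in CNT had the opposite sign to that in the TAL clusters. The difference of these changes (ZT16 minus ZT4) on the scale of log2(CPM + 1) was 1.60 for CNT minus TAL cluster 2, 1.68 for CNT minus cluster 42 and 1.18 for CNT minus cluster 7. For CNT minus DCT2 it was 1.49 and for CNT minus cluster 14 it was 1.12. The pairs were chosen for their opposite signs in these same 8 libraries, so no test of them is given. The Egf count in CNT was at the level of classes that should lack the gene, and 2 libraries, replicate 1 of Ctrl ZT16 and of cKOt ZT16, carried the rise at 355 and 394 CPM, beside 133 to 174 CPM in the others. With clustering in 50 components the fitted CNT change was -0.37.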

How the results depend on the processing

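Depth limited Slc41a3 most (718 UMIs in all), and each group had 2 mice. The counts below are of different members called past 0.05 in at least 1 set of nuclei, and for each of them the cause of the change was not tested. Without a filter on low counts they were 4 for time in Ctrl (2 with the filter), 3 for time in cKOt (1), 3 and 2 for genotype at ZT4 and ZT16 (0 and 0), 4 for genotype averaged over time (1) and, as member calls in TAL and DCT clusters, 26 (13). The share of all gene tests called rose as well without the filter, to 0.838%, 0.469%, 0.695%, 0.610% and 1.23% for these contrasts (0.419%, 0.151%, 0.392%, 0.238% and 0.799% with it) and to 0.844% in TAL and DCT clusters (0.620%). DESeq2 called 1 for time in Ctrl (0.554% of all gene tests). Clustering in 50 components gave 1 for genotype at ZT4, 1 at ZT16 and 2 averaged over time (0.599%, 0.532% and 1.24%). The classes that led their neighbour passed for 5 members when doublets were left out and for 5 with 50 components, beside 0. With 1 library left out, this test too allows no smaller p than 0.0156. A count of 0 for leading classes under such omissions therefore says nothing about stability. Co-detection passed for 15 pairs without thinning, beside 10 (the void pair of Egf and Slc41a3 in DCT2 is among the 10). Over omissions of 1 library the ranges were 0 to 10 pairs for co-detection, where 7 libraries allow no smaller p than 0.0156, 5 to 15 calls in TAL and DCT clusters, 2 to 3 members for time averaged over genotype, 0 to 2 for time in Ctrl and in cKOt, 0 to 2 for genotype at ZT4, 0 at ZT16, 0 to 4 averaged over time, 0 to 1 for the interaction, and 0 for leading classes. Of the single genes and pairs, 311 alternatives kept direction and side of the limit, 136 lost the call, 10 gained one and 2 turned direction, Cldn10 with Egf in TAL without thinning (0.31) and Egf in CNT with 50 components (-0.37). Egf in TAL clusters 2 and 42, averaged over genotype, kept its call in all alternatives run (-1.05 to -0.82 and -1.14 to -0.84). For other calls, the library omissions named above are not all the alternatives that ended them. For averaged time, 7 alternatives ended the call of Cnnm2 in DCT2, 7 that of Fxyd2 in cluster 7 and 8 that of Egf in CNT. In Ctrl, 10 ended that of Egf in cluster 7.

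Replicate numbers did not pair all samples. The correlation of deviations was 0.45 between genotypes at ZT4 and 0.47 at ZT16, but -0.22 between the Ctrl times. With the replicate number as a block, 4 members passed for time in Ctrl and there were 20 member calls in TAL and DCT clusters, beside 0.544% and 0.777% of all gene tests under that fit. Egf in cluster 42 in Ctrl was lost (-0.83, edgeR adjusted p 0.064). Averaged over genotype, Egf in DCT1 was gained (-0.45, 0.0433). Gained in Ctrl were Trpm6 (0.59, 0.0317), Cnnm2 (0.76, 0.022) and Egf (-0.95, 0.0237) in DCT2, Fxyd2 in cluster 7 (-0.60, 0.0072) and Egf in cluster 14 (-0.43, 0.0438). Gained in cKOt was Egf in clusters 14 (-0.48, 0.043) and 7 (-0.46, 0.0133). A replicate block within each time point, chosen after seeing the data, gave 2 members for genotype at ZT4, 2 at ZT16 and 5 averaged over time, while the share of all gene tests called rose to 0.949%, 0.744% and 1.76%. Among the members were Cldn19 in the thin ascending limb (-0.69, edgeR adjusted p 0.0103), Trpm7 in DCT1 (-0.31, 0.0336) and Slc41a3 in DCT1 (1.59, 0.00165). The others were Egf in the straight proximal tubule (0.58, 0.0358 averaged, and 0.84, 0.0489 at ZT16), where the genotypes lay in different clusters and the Egf share was at background, Fxyd2 in TAL cluster 2 (-0.33, 0.0413 averaged) and cluster 7 (-0.37, 0.0447 at ZT4), Trpm6 in DCT2 (-0.43, 0.0295 at ZT16) and Cldn19 in the thin ascending limb at ZT4 (-1.03, 0.00693). Not run were the count in TAL and DCT clusters with only 2 groups in the fit or with 50 components, whose cluster numbers differ, and the averaged and interaction contrasts with only 2 groups.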
